A study of Mus musculus with 20 samples.

Results

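A set of 9 genes of the regulatory and Th17 branches of the CD4 T cell lineage were followed in the cecum: Foxp3, Ikzf2, Ctla4, Icos, Gpr83, Tgfb1, Rora, Ahr and Maf. They were chosen by name, as genes that short-chain fatty acids have been reported to affect, and all 9 were found among the 19887 genes of the count table. Of the 9, 8 passed the filter on low counts and were tested together with 15348 genes in all, whereas Gpr83 was too low to test. RNA came from whole cecum tissue of 20 C57BL/6 mice that were placed on the Total Western Diet (TWD), a rodent diet modelled on human Western nutrition, after weaning at 3 to 4 weeks of age. After 6 weeks on the TWD, 5 mice stayed on it (0% RPS) and 3 further groups of 5 mice received the TWD with 2, 5 or 10% resistant potato starch (RPS, given as raw potato starch) for 3 more weeks. All 4 groups thus shared the TWD, and no group on another basal diet was analysed here. The totals were 14967798 to 42687283 reads per mouse, and the ranges of the 4 diets overlapped.

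Regulatory T cells restrain immune responses and are abundant in the gut wall, where products of bacterial fermentation can promote them. Their identity depends on the transcription factor Foxp3, and many also carry the Ikaros family factor Helios, encoded by Ikzf2. They hold back other T cells in part through Ctla4, a receptor that competes with Cd28 for its ligands, and they need the costimulatory receptor Icos. Transforming growth factor beta 1 (Tgfb1) drives both regulatory and Th17 cells out of naive T cells. Th17 cells make interleukin 17 with the help of the nuclear receptor Rora, and are further shaped by Ahr, a receptor for dietary and microbial indoles, and by the transcription factor Maf.

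No gene of the 9 passed the threshold for any RPS level (edgeR quasi-likelihood test, Benjamini-Hochberg adjusted p of at most 0.05 over all tested genes and a fold change of at least 1.5). With 10% against 0% RPS, 0 of 8 genes were called, against 1.04% of all genes tested. With 5% RPS it was 0 of 8 against 0.195%, with 2% RPS 0 of 8 against 0%. A linear trend over the RPS percentage was called in 0 of 8 against 1.11%, and any difference among the 4 diets in 0 of 8 against 0.0912% (no fold threshold in these tests). At an unadjusted p under 0.05, there were 2 of 8 with 10% RPS (Ctla4 and Foxp3; 19.5% of all genes), 1 of 8 with 5% RPS (Maf; 13.3%), 0 of 8 with 2% RPS (5.77%), 2 of 8 in the trend (Ctla4 and Icos; 18.8%) and 1 of 8 for any difference (Ctla4; 11.1%). The tests compare the spread between individual mice. The median log2 fold change of the 8 genes was 0.35 with 10% RPS, 0.26 with 5% and 0.12 with 2%, and 6 of 8 estimates with 10% RPS lay above 0, against 50.9% of all genes. The median of all tested genes was 0.0041, -0.0018 and 0.0035. No tested gene of the 9 had levels in mice fed 10, 5 or 2% RPS that lay wholly apart from those in mice fed 0% RPS (0 of 8 each, against 4.88, 3.57 and 1.09% of all genes). The plot of estimates shows wide intervals for Ctla4, Foxp3, Icos and Tgfb1 and narrower ones for Rora, Ahr and Maf, of which that for Maf with 5% RPS lay above 0 and reached past a 1.5-fold change.

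**Figure D1:**
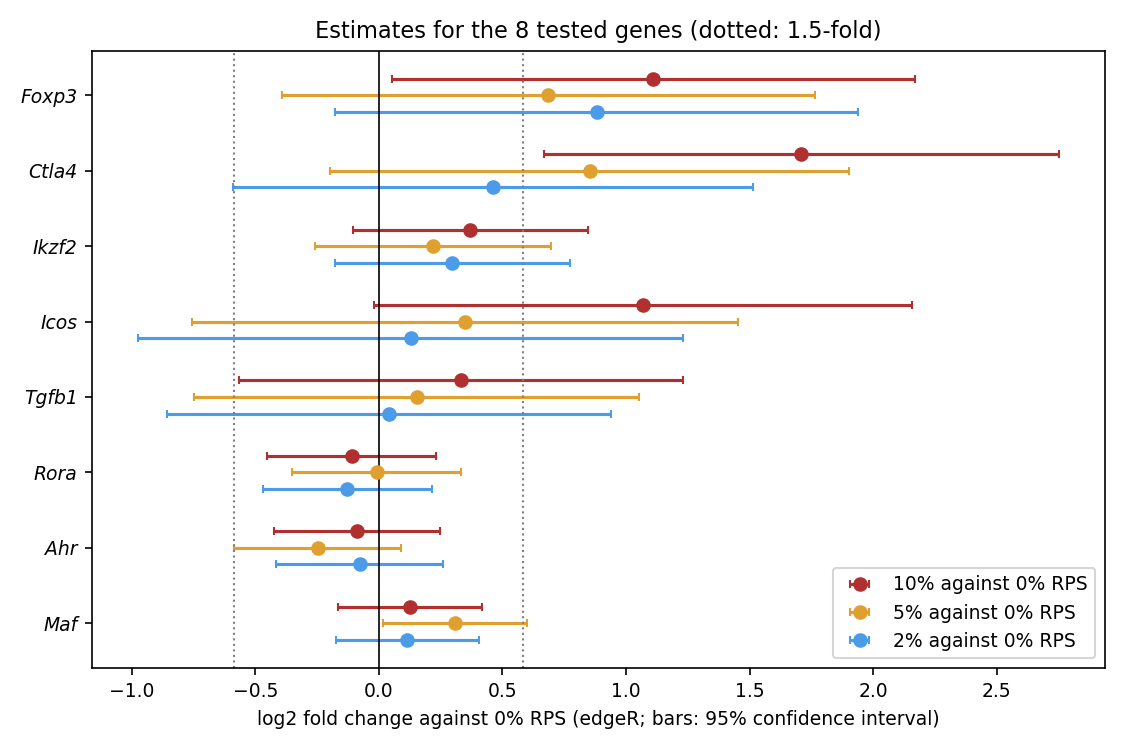
Log2 fold change (x axis) of the 8 tested genes (y axis) in mice fed 10, 5 or 2% RPS against 0% RPS, with 5 mice per diet; points are edgeR estimates, bars 95% confidence intervals and dotted lines a 1.5-fold change. The interval for Ctla4 with 10% RPS ran from 0.67 to 2.75 and was the farthest from 0, and none of these comparisons passed the adjusted threshold.

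Levels are given as CPM, the read count of a gene relative to all reads of its mouse after scaling by the trimmed mean of M values (TMM), and, between genes, per kilobase of exon (RPKM). In RPKM over the 20 mice (mean ± SD, n = 20), Ikzf2 was highest at 4.94 ± 1.19, then Ahr at 2.64 ± 0.48, Maf at 2.11 ± 0.349 and Tgfb1 at 2.04 ± 1.02. Rora followed at 0.925 ± 0.16, Ctla4 at 0.647 ± 0.455 and Icos at 0.485 ± 0.295. Foxp3, at 0.191 ± 0.125, and Gpr83, at 0.0345 ± 0.0284, were lowest. The ranges of every pair of neighbours in this order overlapped across mice. Within single mice, Ikzf2 exceeded Ahr in 20 of 20, but Maf exceeded Tgfb1 in only 12 of 20. The regulatory T cell genes Foxp3, Ctla4 and Icos were thus counted from few reads (9 to 80, 9 to 103 and 11 to 104 per mouse), while Ikzf2 had 1025 to 3229.

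**Figure D2:**
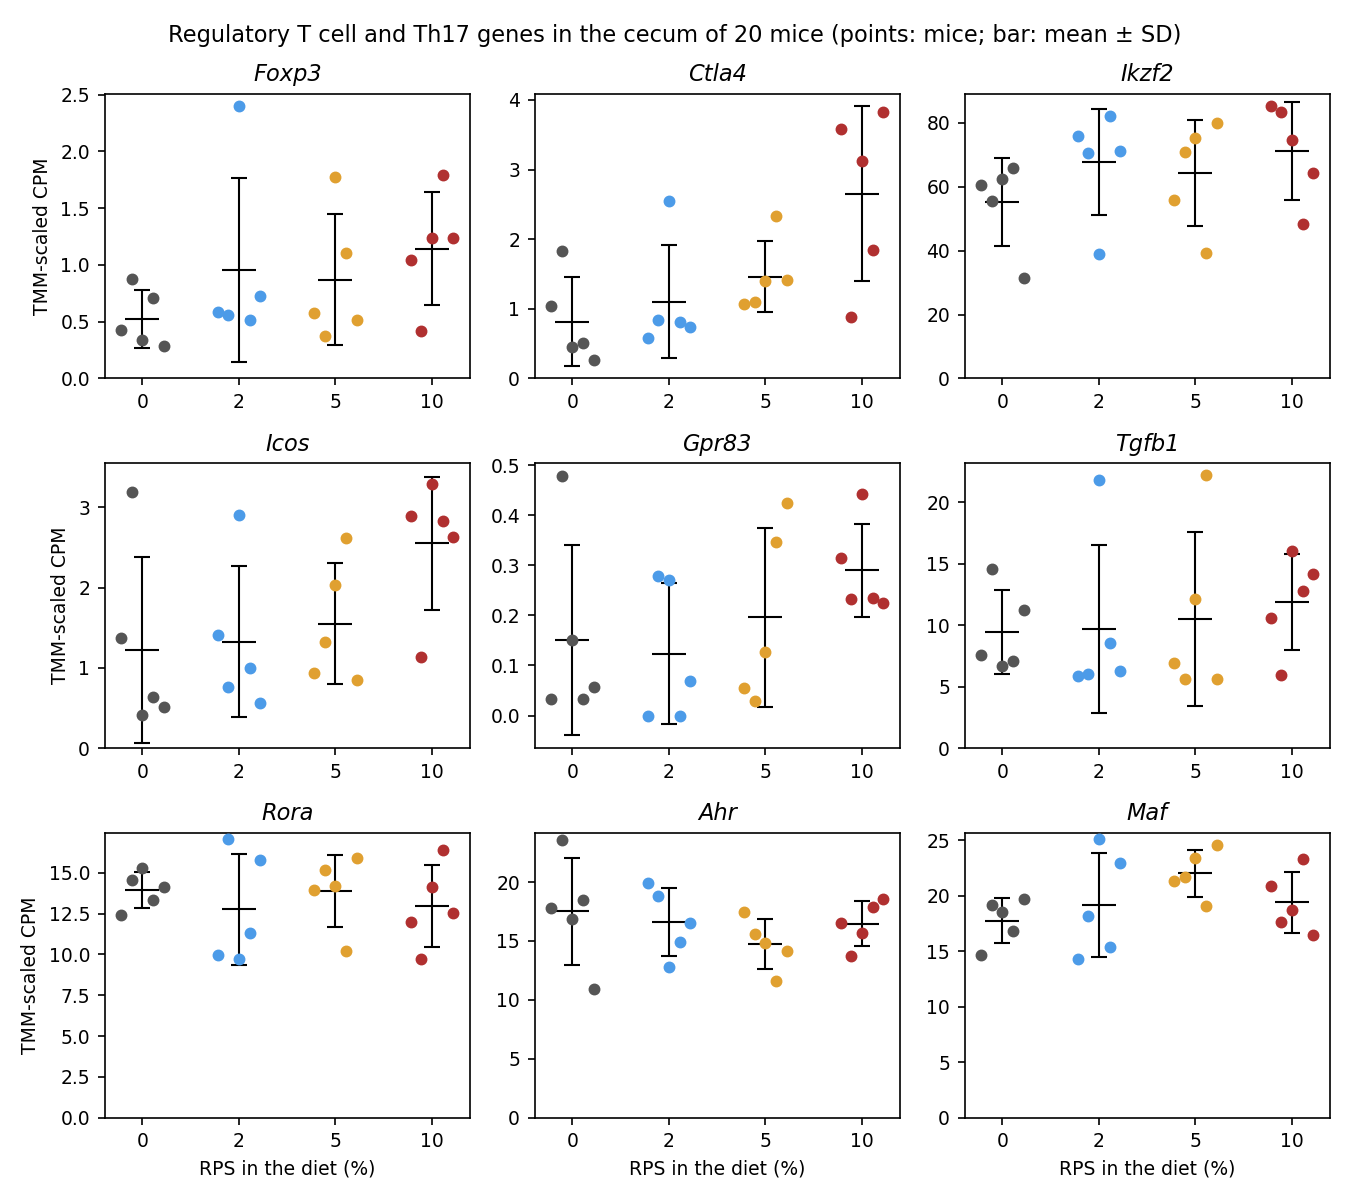
TMM-scaled CPM (y axis, linear, a scale of its own for each gene) of the 9 genes by RPS level (x axis); points are single mice, the horizontal bar is the mean and the whiskers are 1 SD, with 5 mice per diet. Ctla4 lay above its highest 0% RPS value in 4 of 5 mice fed 10% RPS, whereas all 5 Ahr values with 10% RPS lay within the range of the 0% group.

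Foxp3 (ENSMUSG00000039521, chromosome X, 7439883 to 7461484, plus strand, GRCm39) encodes the factor that defines regulatory T cells. Its CPM was 0.287, 0.338, 0.423, 0.705 and 0.876 in mice fed 0% RPS and 0.514, 0.557, 0.584, 0.722 and 2.40 in mice fed 2% RPS. It was 0.374, 0.518, 0.575, 1.10 and 1.78 with 5% RPS and 0.413, 1.05, 1.23, 1.24 and 1.79 with 10% RPS. Thus 4 of 5 mice fed 10% RPS were above every mouse fed 0% RPS, and the remaining one, mouse 2, lay within the range of the 0% group. The log2 fold change with 10% RPS was 1.11 (SE 0.51, 95% interval 0.052 to 2.17, unadjusted p = 0.0406, adjusted p = 0.238, edgeR), and it did not pass the threshold. The estimates were 0.69 with 5% RPS (adjusted p = 0.628) and 0.88 with 2% RPS (adjusted p = 0.892). Leaving out 5% mouse 3 took the first to 0.31, and leaving out 2% mouse 3 took the last to 0.20. Exons of Foxp3 share 590 bases with Ccdc22 and 266 bases with Ppp1r3f, which lie on the opposite strand, and whether the counting used strand is not given in the sources used here.

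Ctla4 (ENSMUSG00000026011, chromosome 1, 60926159 to 60954991, plus strand) had the largest estimate of the 8 genes. In mice fed 0% RPS it was 0.258, 0.45, 0.504, 1.04 and 1.83 CPM, and in mice fed 2% RPS 0.584, 0.745, 0.804, 0.835 and 2.55 CPM. In mice fed 5% RPS it was 1.07, 1.09, 1.40, 1.41 and 2.33 CPM, and in mice fed 10% RPS 0.878, 1.84, 3.13, 3.59 and 3.83 CPM. The 10% group was high in 4 of 5 mice, with mouse 2 again the low one, and all 5 mice fed 5% RPS lay above the mean of the 0% group but only 1 above its range. The fold change with 10% RPS was 3.27, a log2 fold change of 1.71 (SE 0.50, unadjusted p = 0.00267, adjusted p = 0.0746, edgeR). The estimate was 0.85 with 5% RPS (adjusted p = 0.496, estimates of 0.61 to 1.38 when each mouse was left out) and 0.46 with 2% RPS (adjusted p = 0.963). The slope of the trend was 0.17 log2 units per percent RPS (SE 0.043, adjusted p = 0.0562). DESeq2's Wald test gave an adjusted p of 0.0167 for 10% RPS. In edgeR fits that each omitted 1 mouse, the adjusted p ranged from 0.0254 to 0.191 and passed in 2 of 20 fits, without 0% mouse 2 (0.0254) and without 2% mouse 3 (0.0405).

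The promoter windows of Foxp3 and Ctla4 are shown as an example from the genes that varied together from mouse to mouse. Each is 300 bases, 250 before and 50 after an annotated start, from RefSeq promoters built on GRCm38.p6, which held 5 of the 9 genes; both matched GRCm39 exactly once, at chrX:7445665-7445964 and chr1:60947934-60948233, plus strand. Capitals mark GGAAA on either strand (read as TTTCC on the other), the core bound by NFAT, the calcium-dependent factor of T cell activation. It overlaps the shorter core of ETS factors.
Foxp3: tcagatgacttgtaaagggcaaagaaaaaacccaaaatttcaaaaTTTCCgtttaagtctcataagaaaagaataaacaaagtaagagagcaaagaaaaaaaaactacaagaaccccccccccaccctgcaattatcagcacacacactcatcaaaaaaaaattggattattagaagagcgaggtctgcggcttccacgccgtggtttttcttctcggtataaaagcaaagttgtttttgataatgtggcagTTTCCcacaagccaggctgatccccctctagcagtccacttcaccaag
Ctla4: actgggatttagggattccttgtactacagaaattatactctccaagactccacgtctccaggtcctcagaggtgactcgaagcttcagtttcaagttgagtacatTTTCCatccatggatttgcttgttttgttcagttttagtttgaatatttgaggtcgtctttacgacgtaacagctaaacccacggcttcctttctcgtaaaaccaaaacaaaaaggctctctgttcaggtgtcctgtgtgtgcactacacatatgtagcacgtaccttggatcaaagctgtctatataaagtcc
The Foxp3 window held 2 matches and the Ctla4 window 1, and a second Foxp3 start held 1. The windows of Tgfb1 and Gpr83, whose levels also correlated with Ctla4 by Pearson r, held 0 each. That of Rora, which did not correlate with Ctla4, held 2. Of 32851 RefSeq promoters of this length, 61.3% held at least 1 match, so that these letters do not set the windows apart.

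Icos (ENSMUSG00000026009, chromosome 1, 61017086 to 61039479, plus strand), which neighbours Ctla4, encodes a costimulatory receptor of activated, follicular helper and regulatory T cells. Its CPM was 0.413, 0.516, 0.638, 1.37 and 3.19 with 0% RPS, and 0.559, 0.765, 0.997, 1.41 and 2.91 with 2% RPS. With 5% RPS it was 0.848, 0.932, 1.32, 2.03 and 2.61, and with 10% RPS 1.14, 2.63, 2.83, 2.89 and 3.29. The 10% group was high in 4 of 5 mice, but 1 mouse fed 0% RPS, mouse 2, was as high, so the groups overlapped. The log2 fold change with 10% RPS was 1.07 (SE 0.52, unadjusted p = 0.0541, adjusted p = 0.265, edgeR), and without 0% mouse 2 it was 1.79 (adjusted p = 0.0495, the 1 of 20 such fits that passed, with adjusted p up to 0.437). With 5 and 2% RPS the estimates were 0.35 (adjusted p = 0.855) and 0.13 (adjusted p = 0.99), and without 0% mouse 2 that for 5% was 1.07 (adjusted p = 0.344).

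Gpr83 (ENSMUSG00000031932), an orphan-type receptor enriched on regulatory T cells, was at 0 to 14 reads per mouse. It had 1, 12, 4, 1 and 2 reads in mice 1 to 5 with 0% RPS, 0, 8, 9, 0 and 3 with 2% RPS, 2, 1, 2, 11 and 9 with 5% RPS and 9, 9, 14, 5 and 6 with 10% RPS. Every mouse fed 10% RPS thus had at least 5 reads, and their CPM lay within the range of the 0% group. A count of 0 allows up to 3 reads, which corresponded to between 0.0698 and 0.19 CPM depending on the library, and such limits cover counting error only. No fold change is given for this gene.

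Ikzf2 (ENSMUSG00000025997, chromosome 1, 69570373 to 69727004, minus strand) was the most highly expressed of the 9. Its CPM was 31.4, 55.6, 60.7, 62.3 and 65.7 with 0% RPS and 39.1, 70.5, 71.2, 75.8 and 82.1 with 2% RPS. It was 39.2, 55.8, 70.9, 75.2 and 80.1 with 5% RPS and 48.3, 64.4, 74.6, 83.4 and 85.4 with 10% RPS. In the 0 and 2% groups 1 mouse lay well below the others, and the ranges of all diets overlapped. The log2 fold change was 0.37 with 10% RPS (SE 0.23, adjusted p = 0.379), 0.22 with 5% (adjusted p = 0.765) and 0.30 with 2% (adjusted p = 0.921), none past the threshold in edgeR. Its reads outnumbered those of Foxp3 in all 20 mice, and Ikzf2 was 603% to 889% of the summed CPM of the T cell receptor genes Cd3d, Cd3e and Cd3g on average per diet.

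Tgfb1 (ENSMUSG00000002603, chromosome 7, 25386390 to 25404506, plus strand), the cytokine that both lineages need, was 6.68, 7.12, 7.58, 11.3 and 14.6 CPM with 0% RPS and 5.89, 6.02, 6.28, 8.52 and 21.8 CPM with 2% RPS. It was 5.61, 5.64, 6.90, 12.1 and 22.2 CPM with 5% RPS and 5.91, 10.6, 12.8, 14.1 and 16.02 CPM with 10% RPS. In each RPS group 1 mouse lay above the range of the 0% group, and 3 of 5 mice with 2% RPS, 2 of 5 with 5% and 1 of 5 with 10% lay below it. The ranges of all diets overlapped, and the log2 fold changes of 0.33, 0.15 and 0.042 with 10, 5 and 2% RPS were smaller than their SE of about 0.43 (adjusted p = 0.714, 0.933 and 0.995, edgeR).

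The genes of the Th17 side varied little. Rora (ENSMUSG00000032238, chromosome 9, 68561068 to 69295528, plus strand) ranged from 12.4 to 15.3 CPM with 0% RPS and from 9.73 to 16.4 CPM with 10% RPS, a log2 fold change of -0.11 (95% interval -0.45 to 0.23, adjusted p = 0.76). Ahr (ENSMUSG00000019256, chromosome 12, 35547973 to 35585057, minus strand) ranged from 10.9 to 23.5 CPM with 0% RPS and from 13.7 to 18.5 CPM with 10% RPS, a log2 fold change of -0.088 (95% interval -0.43 to 0.25, adjusted p = 0.811). With 5% RPS Ahr was 11.6, 14.2, 14.8, 15.6 and 17.5 CPM, all below the mean of the 0% group but within its range (log2 fold change -0.25, adjusted p = 0.557). Maf (ENSMUSG00000055435, chromosome 8, 116409632 to 116434579, minus strand) was 14.6, 16.8, 18.5, 19.2 and 19.7 CPM with 0% RPS and 19.1, 21.4, 21.7, 23.4 and 24.5 CPM with 5% RPS. Thus 4 of 5 mice fed 5% RPS exceeded every mouse fed 0% RPS, yet the difference of 0.31 on the log2 scale was small (SE 0.14, unadjusted p = 0.0391, adjusted p = 0.337, edgeR). Maf was 16.5 to 23.4 CPM with 10% RPS, a log2 fold change of 0.13 (adjusted p = 0.655). For Rora, Ahr and Maf with 10% RPS, the intervals did not reach a 1.5-fold change in either direction.

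A piece of whole cecum holds many cell types, and in such bulk RNA fewer cells of a type cannot be told apart from less RNA per cell. The markers of T cells, B cells and other types were therefore set beside the 9 genes. Summed over 15 pan T cell markers, all in the table, the level was 37.2 to 87.8 CPM with 0% RPS, 36.6 to 130.1 with 2%, 42.9 to 71.4 with 5% and 30.3 to 97.9 with 10%. The 15 B cell and follicle markers varied far more, with 17.7 to 406 CPM (median 42.8) in mice fed 0% RPS, 15.03 to 603 (median 28.9) with 2%, 24.1 to 265 (median 144) with 5% and 34.9 to 537 (median 466) with 10% RPS. With 10% RPS all 15 of the B cell and follicle markers had estimates above 0 (50.9% of all genes). The median log2 fold change was 1.89, but 0 of 15 were called (1.04% of all genes). At an unadjusted p under 0.05 there were 1 of 15 with 10% RPS (19.5% of all genes) and 6 of 15 in the trend (18.8%), all higher. The mouse fed 2% RPS with the highest Foxp3, Ctla4, Icos and Tgfb1, mouse 3, had the highest B cell and follicle sum of all mice, 603 CPM, and the low mouse of the 10% group, mouse 2, had the lowest sum of its diet, 34.9 CPM. The plot of these sums shows the same order for Foxp3, Ctla4, Icos and Tgfb1 and none for Ikzf2 and Ahr.

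**Figure D3:**
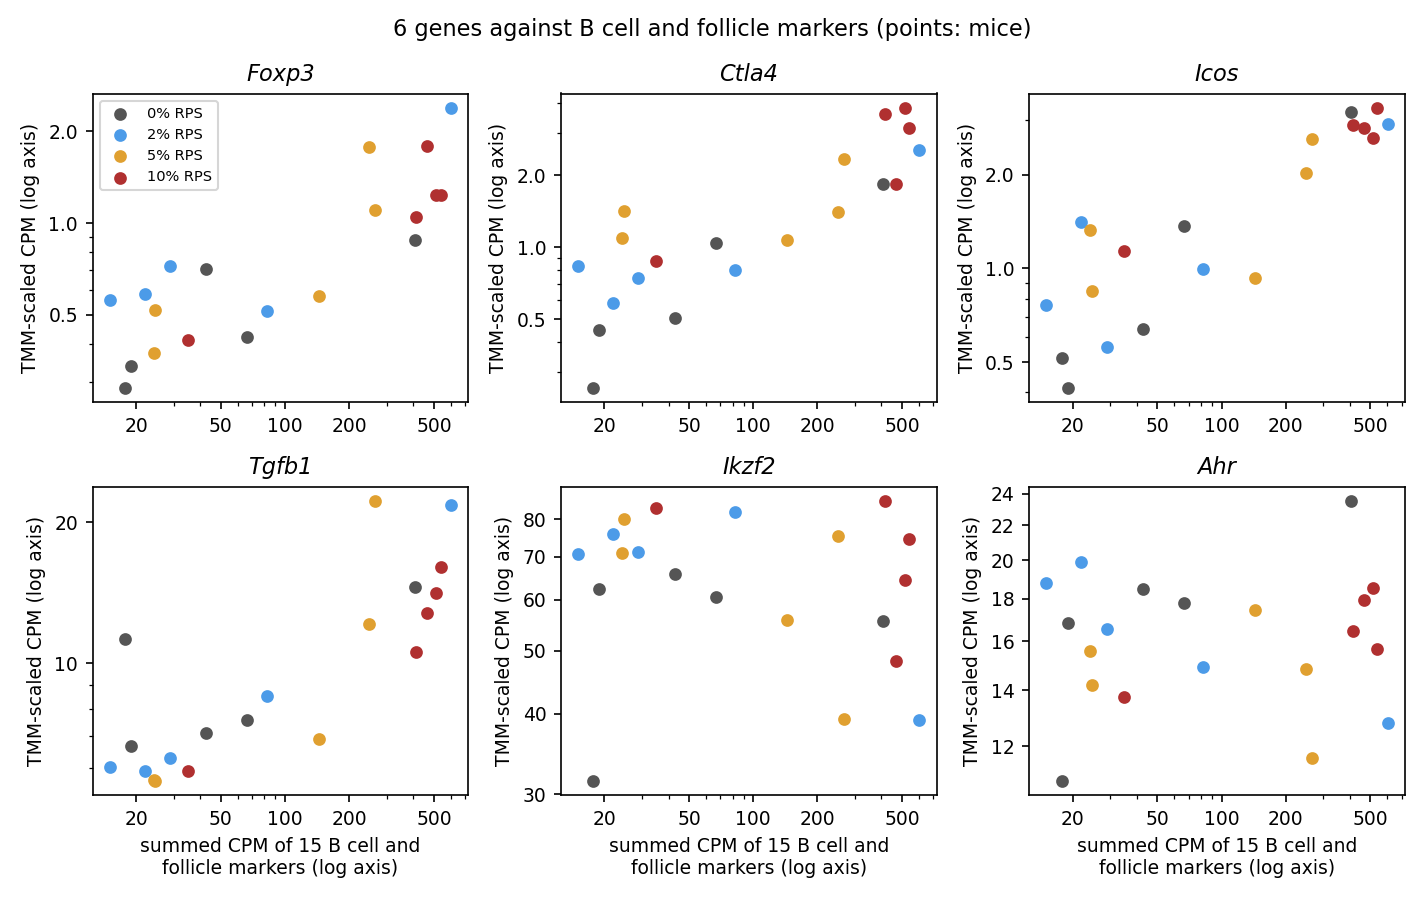
TMM-scaled CPM of 6 genes (y axis, log scale) against the summed CPM of 15 B cell and follicle markers (x axis, log scale); each point is 1 of 20 mice, coloured by RPS level. Mice with high marker sums had high Foxp3, Ctla4, Icos and Tgfb1 (Pearson r on log2 CPM of 0.829, 0.841, 0.866 and 0.813), whereas Ikzf2 (r = -0.169) and Ahr (r = 0.0602) showed no such order.

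Over the 20 mice, the mean log2 CPM of the pan T cell markers correlated with Tgfb1 at r = 0.861, Icos at 0.843, Foxp3 at 0.831 and Ctla4 at 0.829 (Spearman rho 0.786, 0.785, 0.69 and 0.812; Benjamini-Hochberg adjusted permutation p = 0.00018 for each r, and at most 0.0062 for each rho, over 72 relations). Without the 2 mice farthest from the median, these r were 0.879, 0.867, 0.793 and 0.85, and with the diet means subtracted 0.861, 0.825, 0.839 and 0.854. The genes therefore followed the T cell markers also within the diets. Ikzf2, Rora, Ahr and Maf did not pass the threshold against either list, with r between -0.269 and 0.342 for the T cell markers and between -0.246 and 0.219 for the B cell and follicle markers. Ahr instead correlated negatively with the smooth muscle and stromal markers (r = -0.661, rho = -0.693, adjusted permutation p = 0.009 and 0.0062), at r = -0.739 without the 2 farthest mice and -0.703 with the diet means subtracted. Those markers reached 3107 to 6498 CPM with 0% RPS and 4744 to 10111 CPM with 5% RPS, the diet with the lowest Ahr estimate, and their part in that estimate was not tested. These relations were computed after the data had been seen, and the genes and markers of a mouse share its library.

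**Figure D4:**
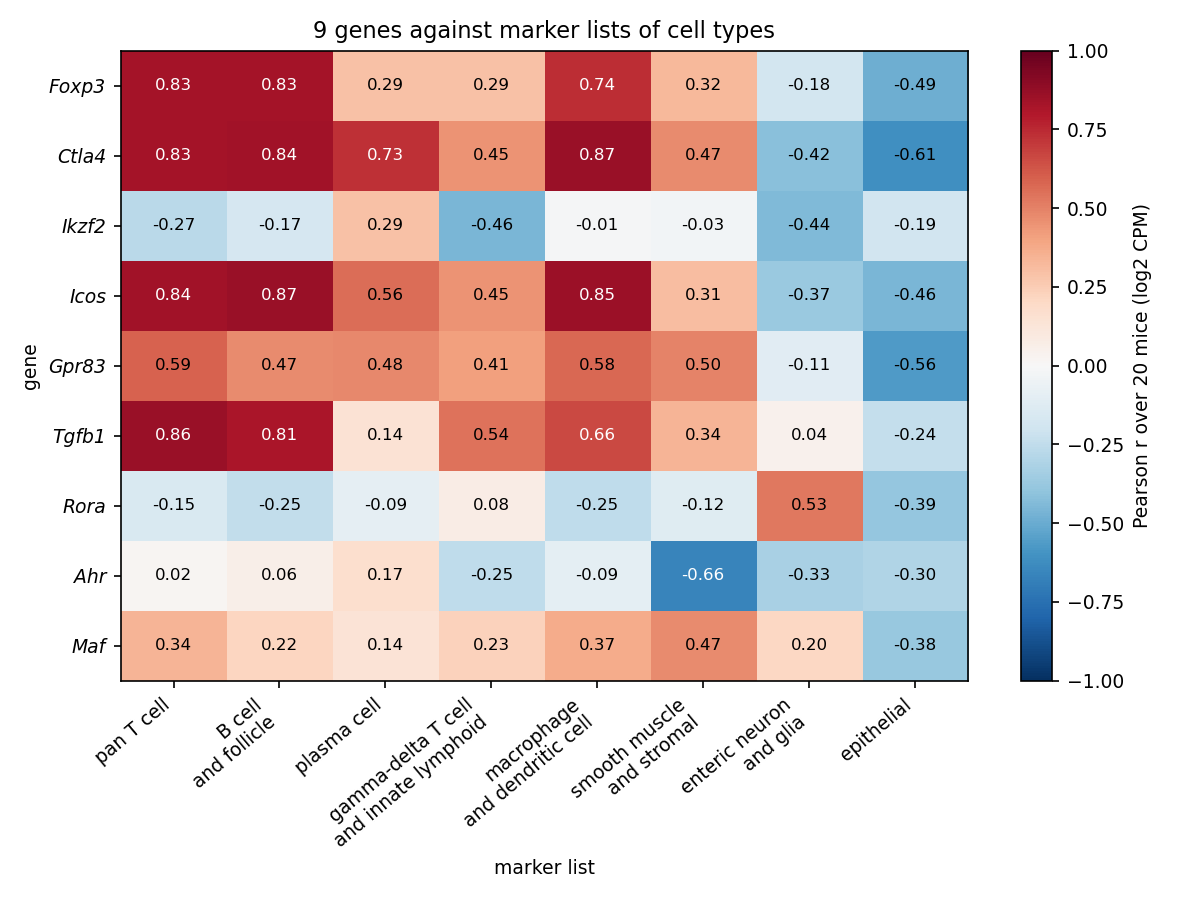
Pearson r over 20 mice between the log2 CPM of each of the 9 genes (rows) and the mean log2 CPM of 8 marker lists (columns), in colour from -1 to 1 and as numbers. Foxp3, Ctla4, Icos and Tgfb1 were at 0.81 to 0.87 with the T cell and the B cell and follicle lists, and Ahr was at -0.66 with the smooth muscle and stromal list.

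With the mean of the pan T cell markers as a covariate, the log2 fold change with 10% RPS was 1.08 for Ctla4 (SE 0.29, adjusted p = 0.0591), 0.59 for Icos (adjusted p = 0.307) and 0.45 for Foxp3 (adjusted p = 0.475). With the B cell and follicle markers in its place, the same estimates were 0.91 (adjusted p = 0.162), 0.33 (adjusted p = 0.625) and 0.14 (adjusted p = 0.862). The estimate for Tgfb1 turned negative, to -0.26 and -0.51 (adjusted p = 0.585 and 0.331), and that for Ikzf2 was 0.52 and 0.54 (adjusted p = 0.216 and 0.244). The estimates for Foxp3, Icos and Ctla4 were thus smaller with either covariate than without.

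To express the regulatory genes per unit of T cell receptor mRNA, their CPM was divided by the summed CPM of Cd3d, Cd3e and Cd3g, subunits of the CD3 complex that all T cells carry. That sum was 9.75 ± 3.30 CPM (SD, n = 5) with 0% RPS, 9.77 ± 5.87 with 2%, 8.10 ± 1.17 with 5% and 11.0 ± 3.86 with 10%. Ctla4 came to 7.78 ± 4.14% of CD3 with 0% RPS, 10.9 ± 1.87% with 2%, 18.5 ± 8.19% with 5% and 23.5 ± 7.27% with 10% RPS. The 0% mice lay between 3.13 and 12.6%, below all mice fed 5% RPS (12.9 to 32.7%) and all mice fed 10% RPS (17.2 to 33.4%). The share of all genes separated in this way was not computed for this ratio, and in CPM the Ctla4 ranges of these diets overlapped. On the log2 scale the ratio differed from 0% RPS by 1.34 with 5% and 1.72 with 10% RPS (two-sided exact permutation p = 0.00794 for each, the smallest that 5 against 5 mice allow; adjusted p = 0.0556 over 14 tests). Icos was 11.1 ± 6.85% with 0% RPS, 13.4 ± 4.74% with 2%, 19.4 ± 10.5% with 5% and 23.5 ± 3.39% with 10% RPS, a log2 difference for 10% RPS of 1.28 (exact permutation p = 0.0159, adjusted p = 0.0741). Foxp3 was 5.33 ± 1.82% with 0% RPS, 9.25 ± 2.81% with 2%, 10.4 ± 5.77% with 5% and 10.5 ± 3.87% with 10% RPS, so that its means with the 3 RPS levels lay close together. Its log2 differences from 0% RPS were 0.81, 0.85 and 0.98 (exact permutation p = 0.0317, 0.0794 and 0.0238, adjusted p = 0.0889, 0.159 and 0.0833). None of the 14 tests passed after adjustment. The Ctla4 tests with 5 and 10% RPS were already at the smallest possible p. With the other p-values as they were, these tests could not have passed at any size of difference. With Cd4 as the denominator the differences with 10% RPS were 1.03 for Ctla4, 0.59 for Icos and 0.28 for Foxp3 (adjusted exact permutation p = 0.222, 0.519 and 0.744).

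**Figure D5:**
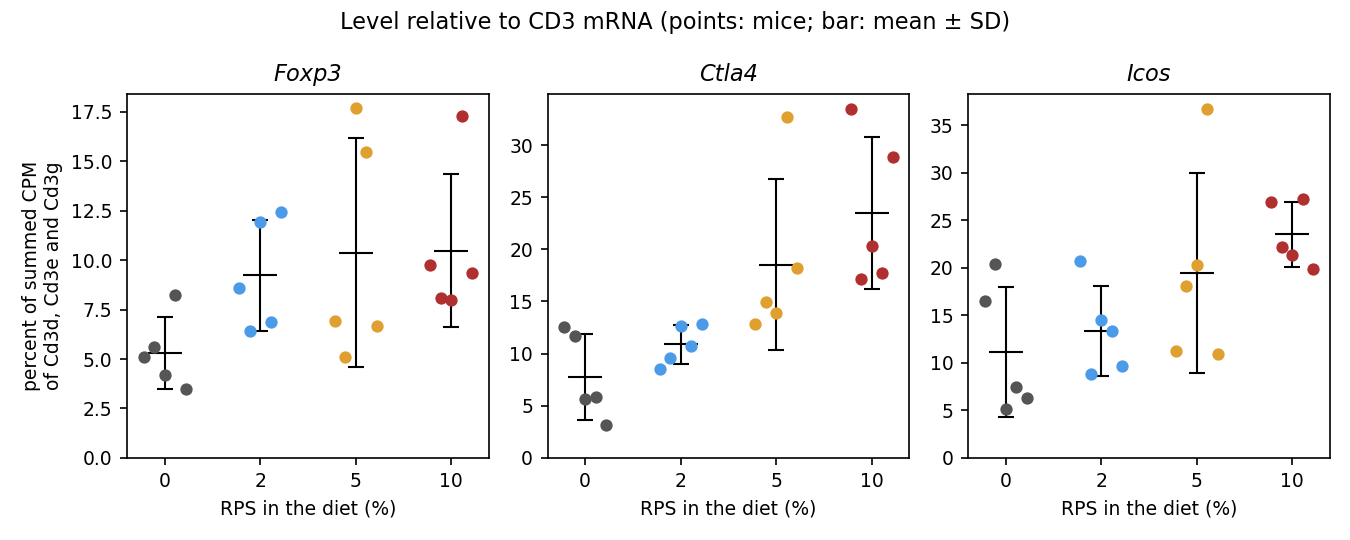
Foxp3, Ctla4 and Icos as a percentage of the summed CPM of Cd3d, Cd3e and Cd3g (y axis, linear) by RPS level (x axis); points are mice, the horizontal bar is the mean and the whiskers are 1 SD, with 5 mice per diet. For Ctla4 the mice fed 5 or 10% RPS lay above all mice fed 0% RPS, and for Foxp3 and Icos the diets overlapped. The share of all genes separated in this way was not computed for this ratio.

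Of the 36 pairs among the 9 genes, 8 correlated across the 20 mice at an adjusted permutation p of at most 0.05 for r. Ctla4 and Icos stood closest (r = 0.877, rho = 0.844, adjusted p = 0.00036 for both, with diet means subtracted r = 0.827). Foxp3 followed Icos (r = 0.764, rho = 0.723, adjusted p = 0.00234 and 0.00864), Tgfb1 (r = 0.739, rho = 0.671, adjusted p = 0.00243 and 0.0162) and Ctla4 (r = 0.738, rho = 0.711, adjusted p = 0.00243 and 0.009). Tgfb1 also followed Icos (r = 0.729, rho = 0.647, adjusted p = 0.00338 and 0.0187) and Ctla4 (r = 0.625, rho = 0.564, adjusted p = 0.0187 and 0.0556). Gpr83 followed Ctla4 (r = 0.651, rho = 0.624, adjusted p = 0.0136 and 0.0256). Ikzf2 and Tgfb1 were opposed (r = -0.571, adjusted p = 0.0353), but by rank the pair did not pass (adjusted p = 0.0949). Without the 2 mice farthest from the median, the r of these 8 pairs were 0.871, 0.729, 0.66, 0.741, 0.833, 0.755, 0.672 and -0.529, in the order given. No pair of Rora, Ahr or Maf passed.

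The genes outside the 9 whose log2 CPM ran closest to each over the 20 mice, given as a description with Pearson r, were for Foxp3 Hsh2d (0.909), Tlr9 (0.889), Tmem229b (0.889), Bin2 (0.887) and Rgs19 (0.886). For Ctla4 they were Itga4 (0.951), Plxnc1 (0.949), Fcgr2b (0.948), Pik3ap1 (0.939) and Lax1 (0.938), and for Icos Ly6e (0.945), Pla2g2d (0.93), Cd74 (0.928), Fgd2 (0.928) and Rgs14 (0.926). For Tgfb1 they were Arrb2 (0.956), Plxnd1 (0.947), Dtx1 (0.945), Arhgef1 (0.939) and Akna (0.935). Those closest to Ikzf2 were others, Marf1 (0.948), Cebpg (0.94), Gm45871 (0.937), Fndc3a (0.935) and Clcn3 (0.934). Ahr ran closest to Cbfb (0.92), Pan3 (0.893), M6pr (0.884), Cggbp1 (0.879) and Sirt1 (0.875), and Rora to Pttg1 (0.872), Adgrg6 (0.805), Rbms3 (0.798), Parva (0.797) and Prickle1 (0.797). Maf (Pdxk at 0.763, Rhoq at 0.758, Zmym3 at 0.752, Colec11 at 0.751) had weaker matches than any of these. The matches of the sparse Gpr83 (Plekhh2 at 0.829, Serpinb1b at 0.811, Loxl3 at 0.79, Pip4k2a at 0.773, Lin7b at 0.767) overlapped in r with those of Rora.

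Among 27 other regulatory T cell genes, 25 were tested and 0 were called with 10% RPS, while 5 were higher and 1 lower at an unadjusted p under 0.05 (6 of 25, against 19.5% of all genes). In the trend it was also 5 higher and 1 lower, against 18.8%. Their median log2 fold change was 0.30. Nt5e, the ectoenzyme CD73 that makes adenosine, was at 0.69 (adjusted p = 0.0792) and Cd28, the costimulatory receptor whose ligands Ctla4 takes, at 1.47 (adjusted p = 0.0888). Ccr4, a homing receptor, was at 1.81 (adjusted p = 0.12), and Il1rl1, the receptor for interleukin 33, at -1.35 (adjusted p = 0.16). The interleukin 2 receptor alpha chain Il2ra was at 0.50 (adjusted p = 0.399) and Il10, the suppressive cytokine, at 0.46 (adjusted p = 0.593). Without 0% mouse 2, Cd28 was at 2.03 (adjusted p = 0.0233) and Nt5e at 0.84 (adjusted p = 0.0336), both called, and Cd28 was also called without 2% mouse 3 (adjusted p = 0.0404).

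Of 24 other Th17 genes, 17 were tested and 0 called with 10% RPS, with 3 higher and 0 lower at an unadjusted p under 0.05 (3 of 17, against 19.5% of all genes) and a median log2 fold change of 0.21. For the trend 0 of 17 were called, and 7 were higher and 0 lower at an unadjusted p under 0.05, against 18.8% of all genes. Irf4, at 1.38 (adjusted p = 0.161), and Ccr6, at 2.17 (adjusted p = 0.235), serve B cells as well as Th17 cells. Ccl20, the ligand of Ccr6, was at 1.30 (adjusted p = 0.253) and Il21r at 1.55 (adjusted p = 0.265). Without 0% mouse 2, Irf4 was at 1.98 and called (adjusted p = 0.0426), and Ccr6, Ccl20 and Il21r were at 3.22, 1.94 and 2.43 (adjusted p = 0.0909, 0.082 and 0.0777). The defining cytokines were at or near 0 counts: Il17a was at 0 reads in 13 of 20 mice and at 7 reads at most, and Il17f was at 0 in 10 mice and at 9 reads at most. Il22 reached 40 reads in 1 mouse but was at 0 in 10 of 20. These 3 cytokines did not pass the filter on low counts and were not tested.

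Of 21 other genes of the TGF-beta pathway, all were tested, 0 were called with 10% RPS (1 higher and 2 lower at an unadjusted p under 0.05, against 19.5% of all genes, and the same numbers in the trend, against 18.8%) and the median log2 fold change was -0.03. Smad7, the feedback inhibitor of the receptors, was at -0.46 with 10% RPS (SE 0.11, adjusted p = 0.0326), below the fold threshold, and fell along the trend by 0.042 log2 units per percent RPS (adjusted p = 0.0468). It was the 1 of 21 genes that passed in the trend, against 1.11% of all genes, and when each mouse was left out the adjusted p of the slope ranged from 0.0224 to 0.151, with the call lost in 14 of 20. Itgb6, the beta 6 subunit of an integrin that activates TGF-beta, was at -0.47 (adjusted p = 0.155), Ltbp1, a latency protein, at 0.26 (adjusted p = 0.183), the receptor Tgfbr2 at 0.21 (adjusted p = 0.264) and the common mediator Smad4 at 0.22 (adjusted p = 0.293). Of 12 genes of the AHR pathway, 11 were in the table and tested and 0 were called. Their estimates with 10% RPS lay above 0 in 2 of 11 (against 50.9% of all genes), with a median log2 fold change of -0.21, and 0 of 11 reached an unadjusted p under 0.05 (19.5% of all genes), while in the trend 3 of 11 did, all lower (18.8% of all genes). Cyp1a1, the classical target of the receptor, was at -1.34 (SE 0.68, adjusted p = 0.282), and Tiparp, another target, at -0.32 (adjusted p = 0.265). The co-chaperone Ptges3 was at -0.25 (adjusted p = 0.318).

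Of 15 pan T cell markers, 0 were called with 10% RPS (1.04% of all genes) and 0 reached an unadjusted p under 0.05 (19.5%). Their estimates lay above 0 in 13 of 15 (50.9% of all genes), with a median log2 fold change of 0.45. Cd3d was at 0.45 (adjusted p = 0.459), Cd3e at -0.12 (adjusted p = 0.908), Cd3g at 0.25 (adjusted p = 0.68) and Cd4 at 0.79 (adjusted p = 0.369). Of 12 epithelial markers 1 was called, against 1.04% of all genes. It was Slc26a3, the chloride and bicarbonate exchanger of the large bowel, at 0.61 (adjusted p = 0.0487, from 0.0284 to 0.136 when each mouse was left out, with the call lost in 13 of 20). Of that list 10 of 12 estimates lay below 0, with a median of -0.14, while 50.9% of all genes lay above 0. At an unadjusted p under 0.05, 1 of 12 was higher and 4 were lower, against 19.5% of all genes in either direction. Its summed level was 39362 to 47016 CPM with 0% RPS and 27712 to 43916 CPM with 10% RPS. Of the plasma cell, gamma-delta T and innate lymphoid, macrophage and dendritic, smooth muscle and stromal, and enteric neuron and glia markers, 0 were called. Their median log2 fold changes with 10% RPS were 0.44, -0.35, 0.43, 0.44 and -0.32. At an unadjusted p under 0.05 there were 2 of 7, 1 of 8, 3 of 13, 7 of 12 and 0 of 10 in that order, against 19.5% of all genes. Of the smooth muscle and stromal markers 6 were higher and 1 lower with 10% RPS, and 9 of 12 were higher with 5% RPS (13.3% of all genes), with a median log2 fold change of 0.62. The macrophage and dendritic cell markers also correlated with Ctla4 (r = 0.865, rho = 0.881), Icos (r = 0.854, rho = 0.868), Foxp3 (r = 0.735, rho = 0.713) and Tgfb1 (r = 0.662, rho = 0.632), with adjusted permutation p of 0.00018, 0.00018, 0.00111 and 0.009 for r. The plasma cell markers correlated with Ctla4 (r = 0.732, rho = 0.741, adjusted permutation p = 0.00114 and 0.00252) and with Icos (r = 0.556, rho = 0.552, adjusted permutation p = 0.0368 and 0.0526), and the epithelial markers negatively with Ctla4 (r = -0.61, rho = -0.555, adjusted permutation p = 0.0205 and 0.0526). Gpr83 passed by r but not by rank with the pan T cell (r = 0.587), macrophage and dendritic (r = 0.577) and epithelial (r = -0.563) markers (adjusted permutation p = 0.034, 0.0359 and 0.0361 for r, and 0.0719, 0.0526 and 0.0694 for rho). Rora passed by rank but not by r with the enteric neuron and glia markers (rho = 0.6, r = 0.528, adjusted permutation p = 0.0271 and 0.0532). The part of these cell types in the estimates was not tested.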

How the data were processed

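RNA-seq of cecum tissue from 20 mice, 5 per diet, was analysed. The deposited table holds raw counts per gene and mouse: per the study's methods, the authors removed nucleotides below Q30 and reads with more than 2 ambiguous nucleotides and mapped single-end 50 bp reads of stranded mRNA libraries to GRCm39 in CLC Genomics Workbench 20.01. Strand setting and treatment of multi-mapped reads are not given in the sources used here. All 20 columns were matched to mice by number; mice are numbered 1 to 5 within a diet in accession order, and no batch is given. Gene names, coordinates and exon lengths came from GENCODE mouse release 39 (19827 of 19887 IDs matched).

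Counts were filtered (filterByExpr, minimum count 10), TMM-scaled and fitted for 4 diets in edgeR 4.0.16 (R 4.3.3, robust quasi-likelihood); per-sample depth was 14967798 to 42687283 reads. Log2 CPM used a prior count of 2. Ratios were tested by exact permutation, correlations with 100000 permutations (scipy 1.17.1). Alternatives were DESeq2 1.42.0, size factors, filters, marker covariates, 1 surrogate variable (sva 3.50.0) and leaving out each mouse. Replicate libraries were compared for duplicates, and the 40 pairs differed by more than sampling noise. The code was tested on simulated data.

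The 9 genes and all lists were chosen with earlier results of these data known. Named genes were, by rule, the 9, per list the called genes plus up to 4 with the lowest p for 10% RPS, the 5 most correlated tested genes per gene, and Cd3d, Cd3e, Cd3g, Cd4, Il17a, Il10 and Il2ra. Il17f, Il22 and Dixon's outliers were named after their values were seen. Of the genes the rule names, 3 are not reported here. The correlations with marker lists were added after seeing the data.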

Additional observations from a re-analysis of the deposited data

Results flagged for a closer look

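Within each diet, a mouse was singled out where its gap to the nearest other mouse, divided by the range of the 5, exceeded Dixon's 95% critical value of 0.71. Of 36 groups (9 genes in 4 diets), 6 passed. Chance alone passes about 1 in 20 where values are independent and normally distributed. Here CPM was used on its linear scale and several of the 9 genes varied together, so the 6 are not read against that rate. In mouse 3 of the 2% RPS group, Foxp3 was 2.40 CPM (the other 4 mice 0.514 to 0.722), Ctla4 was 2.55 CPM (others 0.584 to 0.835) and Tgfb1 was 21.8 CPM (others 5.89 to 8.52). In the same mouse Ikzf2 was low, at 39.1 CPM (others 70.5 to 82.1). This mouse also had the highest sums of pan T cell and of B cell and follicle markers of the 20 mice, 130.1 and 603 CPM. In mouse 4 of the 5% RPS group, Ctla4 was 2.33 CPM (others 1.07 to 1.41). In mouse 2 of the 0% RPS group, Gpr83 was 0.478 CPM (others 0.0325 to 0.15), which is 12 reads.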

How the results depend on the processing

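No gene of the 9 was called with 5 or 2% RPS, or for any difference among the diets, under any alternative that could be fitted. With 10% RPS the number called was 0 in the main result, 1 with 1 surrogate variable (Ctla4, adjusted p = 0.0371; Ikzf2, at 0.46, had an adjusted p of 0.0212 but stayed below the fold threshold) and 1 with DESeq2's Wald test, and 0 to 2 when each mouse was left out (2 without 0% mouse 2, Ctla4 and Icos; 1 without 2% mouse 3). For the trend it was 1 (Ctla4) with 1 surrogate variable, with the rank of the dose and with DESeq2, and 0 to 1 when each mouse was left out (1 without 0% mouse 2, 2% mouse 3, 10% mouse 2 or 10% mouse 4). The ratios to CD3 gave 0 calls with either other denominator and 0 to 5 when each mouse was left out, with 3 without 0% mouse 2 and 5 without 0% mouse 4. The 8 correlated pairs became 7 with the diet means subtracted. Foxp3 and Ctla4 drop out when 10 counts are required in every mouse. Of the other named genes, Cd28 and Nt5e were called with 10% RPS by DESeq2 (adjusted p = 0.0288 and 0.0233), and with 1 surrogate variable Cd28, Nt5e and Ccr4 were (adjusted p = 0.0416, 0.0457 and 0.0266). Cd3e, a member of the pan T cell list, was at -0.78 with that list as covariate (adjusted p = 0.0475).

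Estimates that changed sign, on the log2 scale, were none of them called. With the pan T cell covariate Tgfb1 was at -0.26, -0.10 and -0.16 with 10, 5 and 2% RPS and at -0.021 per percent, Cd3g at -0.14 with 10% and Rora at 0.0023 with 5%. With the B cell and follicle covariate Tgfb1 was at -0.51, -0.23, -0.14 and -0.050, the Foxp3 slope at -0.015, the Rora slope at 0.0044, Rora with 5% at 0.018, and Cd4, Cd3d and Cd3g with 10% at -0.074, -0.036 and -0.17. With 1 surrogate variable Tgfb1 was at -0.22 and -0.23 with 5 and 2%, Rora at 0.0075 with 5% and Icos at -0.13 with 2%. Ikzf2 per Cd4 was at -0.44 and -0.12 with 10 and 5%, and per pan T cell mean at -0.33 and -0.028. Leaving out each mouse gave ranges of -0.21 to 0.045 (Ahr), -0.28 to 0.12 (Cd3e) and, per CD3, -0.064 to 0.39 (Ikzf2) with 10% RPS; -0.33 to 0.36 (Tgfb1) and -0.062 to 0.082 (Rora) with 5%; -0.11 to 0.99 (Ctla4), -0.40 to 0.85 (Icos), -0.50 to 0.25 (Tgfb1), -0.20 to 0.052 (Ahr) and -0.0027 to 0.21 (Maf) with 2%; and slopes of -0.016 to 0.0011 (Ahr) and -0.015 to 0.0025 (Rora). The cause of these changes was not tested.

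Over all genes, the number called with 10% RPS was 160, but 98 with only both diets fitted, 0 when a 1.5-fold change was tested directly, 285 without a fold threshold, 397 with 1 surrogate variable, 368 with DESeq2 and 14 to 344 when mice were left out. With 5% RPS it was 30, but 65, 0, 66 and 84 with both diets only, the direct test, and the T and B cell covariates, 170 with 1 surrogate variable, 241 with DESeq2 and 0 to 114 when mice were left out. With 2% RPS DESeq2 called 5. In the trend it was 170, but 103 without a filter, 96 with the B cell covariate, 1293 with 1 surrogate variable, 539 by rank, 4.15 times as many with DESeq2 and 0 to 674 when mice were left out, and for any difference 14, but 353, 473 and 3 to 103.

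No paired analysis was possible because the mice of the 4 diets are different animals whose label numbers are not shared between diets. Foxp3, Ctla4 and Icos had 9 to 104 reads per mouse and an SE of about 0.51 on the log2 scale. The 3.27-fold estimate for Ctla4 did not pass in the main fit, and the part of the read number in this was not tested. Gpr83, Il17a, Il17f and Il22 were below the filter on low counts and had no test.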
